A study of Mus musculus with 2 samples.

Results

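The genes described here are 51 enzymes, transporters and regulators of glycolysis, the pentose phosphate pathway and the citrate cycle, out of 20650 mouse genes that could be named on the arrays. They were taken from a list of gene symbols, and every array probe whose RefSeq accession belongs to a listed gene was used, 73 probes in all. The list follows pathway membership and was drawn up with earlier results of these data known. All 51 genes were well above background on both arrays, as were 13476 of the named genes. RNA came from osteoclast cultures, the multinucleated cells that resorb bone, and was hybridised to 1-colour (Cy3) Agilent arrays. The Dnmt3a knockout array carried RNA of cells lacking Dnmt3a, a DNA methyltransferase that sets new methylation marks, and the wild type array carried RNA of control cells. There was 1 array of each genotype. Both cultures came from female C57BL/6 mice. In both, nonadherent marrow cells were grown with macrophage colony-stimulating factor (M-CSF) for 2 days, the attached monocyte and macrophage precursors were kept, and M-CSF plus RANKL, the cytokine that drives osteoclast formation, was then given. The age of the mice, the knockout allele, the cells in which it was deleted, and any pooling of mice are not given in the sources used here.

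Neither genotype was replicated, so the arrays allow no test and differences are given with their size only. Each difference is the log2 processed signal on the knockout array minus that on the wild type array, after each array was scaled to its 75th percentile. A positive value is therefore higher in the knockout. The error beside it is the scanner software's own error of the 2 spots (median 0.20 over all measured genes). It reflects how well a spot was read and leaves out how cultures and mice vary. Probes spotted at least 8 times had a median SD of 0.07 in the difference. Of the spots, 59.7% were well above background on the knockout array and 52.7% on the wild type array. Dnmt3a itself, read by 1 probe, had a signal of 1822 on the knockout array and 7042 on the wild type array, 3.79-fold lower in the knockout. The position of that probe relative to the deletion is unknown.

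Glycolysis splits glucose into pyruvate in the cytosol and yields some ATP, and lactate dehydrogenase turns pyruvate into lactate. The oxidative branch of the pentose phosphate pathway draws off glucose-phosphate to make NADPH, which feeds reductive synthesis, antioxidant defence and the NADPH oxidase of phagocytes. Its nonoxidative branch returns sugars to glycolysis. The pyruvate dehydrogenase complex turns pyruvate into acetyl-CoA inside mitochondria, and the citrate cycle oxidises it to supply the respiratory chain. Osteoclasts are rich in mitochondria, and their formation under RANKL is known to go with a rise in oxidative metabolism and glycolysis.

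The listed genes of the branches differed in direction between the genotypes. On the knockout array all 4 listed pentose phosphate genes were higher (median log2 difference 0.26), 2 of them beyond the scanner error. Of all measured genes, 51.9% lay above 0. In contrast, all 6 genes of pyruvate entry (median -0.40) and all 13 mitochondrial genes of the citrate cycle group (median -0.27) were lower. Among further measured genes outside the 51, those of the pentose phosphate pathway split, 3 above 0 and 3 below (median 0.03). Below 0 were 8 of 11 further genes of pyruvate entry and 12 of 16 around the cycle. Most of the 20 glycolysis enzymes lay slightly below 0 (median -0.15, 16 below 0). Over the 51 genes, 39 were below 0, against 48.1% of all measured genes, and their median was -0.21 beside 0.01 for all measured genes. All directions are set against most other genes on the arrays. Spike-in scaling lowered every difference by 0.53 (single spike-in probes 0.30 to 0.73), put the median of all genes at -0.52 and left 3 of the 51 genes above 0. The gap between the pentose phosphate and the citrate cycle medians, 0.52 on the log2 scale or 1.44-fold, does not depend on that shift.

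At the thresholds used as calls, 6 of the 51 genes were at least 1.2-fold higher in the knockout, where 19.7% of all measured genes were. At least 1.2-fold lower were 17 of the 51, where 17.7% of all measured genes were. At 1.5-fold the counts were 2 higher (5.82% of all genes) and 3 lower (4.69%), and none of the 51 passed 2-fold in either direction (0.824% and 0.727% of all genes). The share of upward calls at 1.2-fold was 26.1% among the 51 genes and 52.7% among all measured genes; with spike-in scaling it was 0% and 2.75%. At 1.5-fold the 2 higher and 3 lower calls became 3 and 2 under both normexp and median centring, 1 and 3 under quantile normalization, and 0 and 34 with spike-in scaling. Over all measured genes the counts higher and lower at 1.5-fold were 784 and 632 in the main setting, 491 and 291 under normexp, 803 and 626 under median centring, 642 and 801 under quantile normalization, and 64 and 5443 with spike-in scaling. The scanner error was exceeded by 33 of the 51 differences (64.7%) and by 6137 of the 13476 over all measured genes (45.5%). Since the RNA came from whole cultures, fewer cells of a type and less RNA per cell cannot be told apart.

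**Figure D1:**
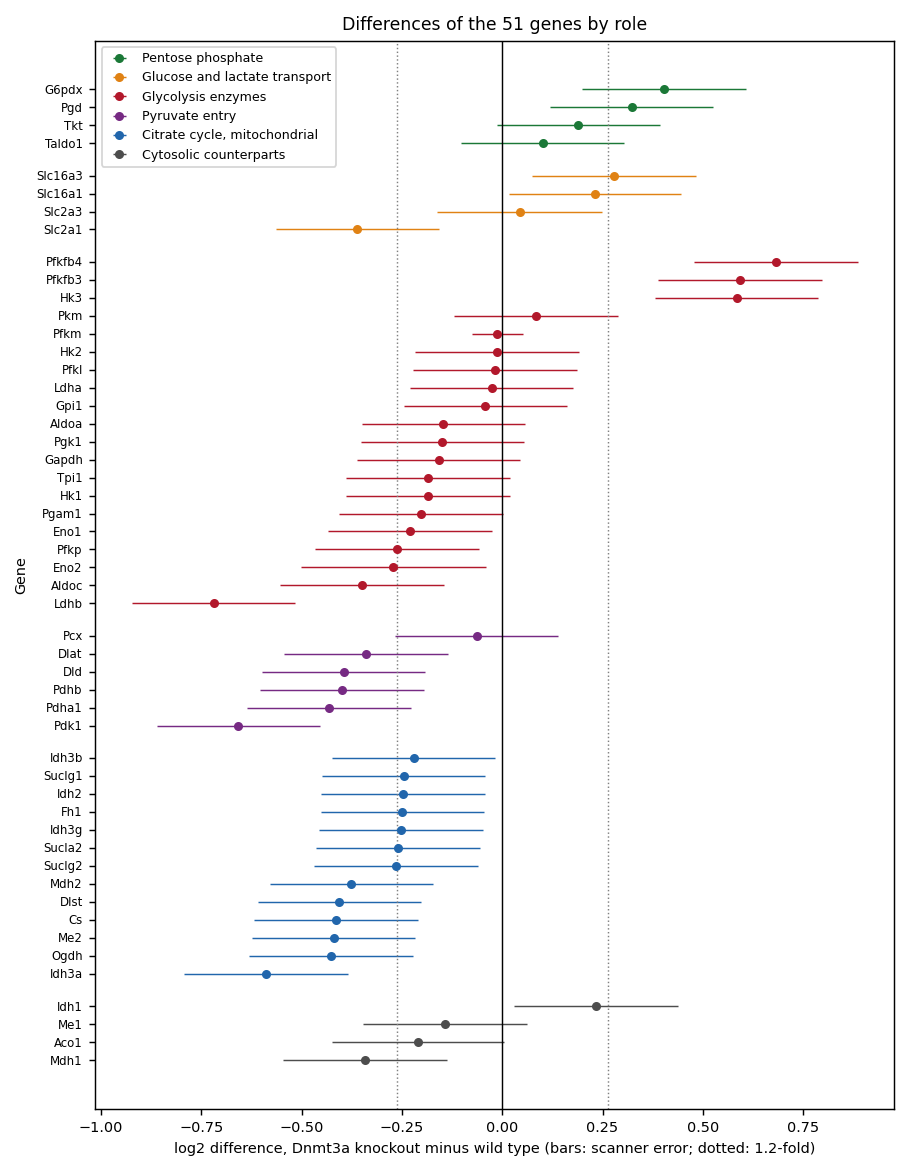
Log2 difference, Dnmt3a knockout minus wild type, of each of the 51 genes (points) with the scanner error of the difference (bars), grouped by role; dotted lines mark 1.2-fold. The pentose phosphate genes lie right of 0 and the genes of pyruvate entry and the mitochondrial citrate cycle left of it, while glycolysis enzymes run from Pfkfb4 (0.68) to Ldhb (-0.72). With spike-in scaling every point shifts left by 0.53.

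The DNA just upstream of 4 of these genes is shown because CG pairs are the sites that Dnmt3a methylates and because these genes stand for the directions seen: Pfkfb4 and G6pdx, higher in the knockout, and Ldhb and Pdha1, lower. Each is the 250 bases before the annotated start from RefSeq (GRCm38.p6), 5′ to 3′ on the gene's strand, with every CG in capitals. Methylation was not measured. The Pfkfb4 stretch is chr9:108991652-108991901 on the plus strand, that of G6pdx chrX:74428881-74429130 on the minus strand, that of Ldhb chr6:142507958-142508207 on the minus strand and that of Pdha1 chrX:160138431-160138680 on the minus strand.
Pfkfb4: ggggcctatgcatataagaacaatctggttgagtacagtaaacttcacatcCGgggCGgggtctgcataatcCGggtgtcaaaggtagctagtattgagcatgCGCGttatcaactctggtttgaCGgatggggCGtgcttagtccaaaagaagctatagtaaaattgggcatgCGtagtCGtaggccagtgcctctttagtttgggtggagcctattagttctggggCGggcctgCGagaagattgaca
G6pdx: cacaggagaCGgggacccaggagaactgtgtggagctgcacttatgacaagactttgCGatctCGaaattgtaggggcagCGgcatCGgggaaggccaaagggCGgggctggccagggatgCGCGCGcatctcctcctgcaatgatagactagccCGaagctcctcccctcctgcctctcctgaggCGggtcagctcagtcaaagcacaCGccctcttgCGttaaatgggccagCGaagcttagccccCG
Ldhb: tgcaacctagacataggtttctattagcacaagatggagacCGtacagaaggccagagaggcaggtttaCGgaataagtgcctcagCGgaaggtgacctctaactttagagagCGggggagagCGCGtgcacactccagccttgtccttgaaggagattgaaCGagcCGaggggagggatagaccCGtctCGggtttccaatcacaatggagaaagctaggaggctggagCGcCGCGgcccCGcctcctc
Pdha1: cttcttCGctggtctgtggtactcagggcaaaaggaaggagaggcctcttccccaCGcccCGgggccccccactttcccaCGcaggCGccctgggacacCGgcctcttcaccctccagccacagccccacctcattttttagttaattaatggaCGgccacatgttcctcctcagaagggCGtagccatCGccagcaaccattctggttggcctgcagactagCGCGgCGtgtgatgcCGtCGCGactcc

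The CG pair occurred 11 times in the stretch of Pfkfb4, 15 times in that of G6pdx, 14 times in that of Ldhb and 15 times in that of Pdha1. The counts of the higher and the lower pair thus overlap. RefSeq starts were found for 48 of the 51 genes, 70 stretches in all, with a median of 15 CG pairs. These 70 are listed with coordinates that run past the annotated start, for Pfkfb4 to 108991951. Their bounds thus differ from those of the sequences shown, though the CG count listed for each of the 4 genes is the same. Over all 32851 stretches of the table the median was 6. By group the medians were 15 for the pentose phosphate genes (5 stretches), 13.5 for glycolysis enzymes (32), 15 for pyruvate entry (8) and 17.5 for the mitochondrial citrate cycle (16).

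The letters ACGTG, the core of the site that hypoxia-inducible factor binds, were searched on both strands. They occurred in 26 of the 70 stretches (37.1%) and in 16.6% of all stretches. They were in all 3 stretches of the transporters (Slc2a1, Slc16a1 and Slc16a3), in 12 of 32 of glycolysis enzymes, in 2 of 8 of pyruvate entry, in 7 of 16 of the mitochondrial citrate cycle, in 2 of 6 of the cytosolic counterparts and in none of the 5 of the pentose phosphate genes. Of the 7 in the citrate cycle, 6 are starts of Ogdh, so the letters were found for 2 of its 11 genes with a start, Ogdh and Idh3g. Counted by gene, they were found for 18 of the 48 (37.5%) and for 18.5% of all genes in the table. CACGTG, a site for Myc and for the MiT factors, contains that core; it was in 8 of the 70 (11.4%) and in 6.02% of all stretches. TGACNNNGC, a form of the antioxidant response element, was in 7 of the 70 (10.0%) and in 10.2% of all. G6pdx was its only holder among the pentose phosphate genes. A match is a run of letters and not a shown site, and the stretches are richer in CG pairs than the table as a whole.

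Among the pentose phosphate genes the NADPH-making enzymes G6pdx and Pgd stood farther above 0 (median 0.36) than Tkt and Taldo1 (median 0.15). G6pdx, which encodes the entry enzyme glucose-phosphate dehydrogenase and makes the pathway's first NADPH, had a signal of 42050 on the knockout array and 32466 on the wild type array. Its difference was 0.40 (scanner error 0.20), 1.32-fold. Pgd, the phosphogluconate dehydrogenase that makes the second NADPH, had 55236 on the knockout and 45095 on the wild type array (0.32, 1.25-fold). The 2 nonoxidative enzymes lay within the scanner error. Tkt, transketolase, had 53679 on the knockout and 48042 on the wild type array (0.19), and Taldo1, transaldolase, had 208764 on the knockout and 198780 on the wild type array (0.10, and -0.00 after quantile normalization). G6pdx ranked at percentile 88.1 of all measured differences and Pgd at percentile 84.3, so many other genes differed by more. With spike-in scaling all 4 were below 0, at -0.13 for G6pdx and -0.21 for Pgd. The probes of G6pdx and Pgd lie in the upper rows of the array, an area with 4583 of the 13476 measured genes and a median difference of 0.00. Without those rows the group rests on Taldo1 and Tkt (median 0.15).

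Other genes of that pathway did not share a direction. Of 9 further genes listed, 6 were measured, 3 lay above 0 and 3 below, and none differed by 1.2-fold. Rpia, the ribose-phosphate isomerase, was highest at 0.15, and Rbks, ribokinase, followed at 0.11. Rpe, the epimerase of the nonoxidative branch, was lowest at -0.20, and Prps2, which carries ribose-phosphate on to nucleotide synthesis, was at -0.11. Pgls, the lactonase that acts between G6pdx and Pgd in the oxidative branch, was singled out after its value was seen. It had 5505 on the knockout and 5800.5 on the wild type array (-0.05, within the scanner error).

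All 6 listed genes of pyruvate entry were below 0, 5 of them beyond the scanner error. Pdha1, the catalytic alpha chain of pyruvate dehydrogenase, had a signal of 4082 on the knockout and 5620.1 on the wild type array (-0.43, 1.35-fold lower). Pdhb, its beta chain, had 30356 on the knockout and 40866 on the wild type array (-0.40), and its further probe gave -0.43. Dlat, the acetyltransferase core, had 1546 on the knockout and 1998 on the wild type array (-0.34). Dld, the dihydrolipoamide dehydrogenase, had 5966 on the knockout and 8013 on the wild type array (-0.40, further probe -0.46). By their brightest probes these 4 listed subunits therefore spanned 0.09 on the log2 scale, less than the scanner error of any of them. The further probe of Dld lay outside that span.

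Pdk1, the kinase that phosphorylates and shuts off pyruvate dehydrogenase, was the lowest of the group. It had 1194 on the knockout and 1923 on the wild type array, a difference of -0.66 (1.58-fold lower) at percentile 3.36 of all measured genes. The enzyme and its inhibitor were thus lower on the same array. Pcx, pyruvate carboxylase, which refills the cycle with oxaloacetate, had 1113 on the knockout and 1188 on the wild type array. Its difference of -0.06 was within the scanner error and was 0.06 after normexp background correction. The probes of Pdha1, Dlat, Pdk1 and Pcx and the brighter probe of Dld lie in the upper rows of the array. Without those rows Pdhb and Dld remained, with a median of -0.43.

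Of 13 further genes of pyruvate handling 11 were measured, 8 of them below 0, 5 at least 1.2-fold lower and 2 at least 1.2-fold higher. Pdk4, a further kinase of the complex, was lowest (346 on the knockout and 556 on the wild type array, -0.65), followed by Lipt1, a lipoyltransferase (-0.49). Pdp1, the phosphatase that switches the complex on again, was highest at 0.31, and Pck2, the mitochondrial enzyme that makes phosphoenolpyruvate, was at 0.27.

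In the mitochondrial citrate cycle all 13 genes were lower, between -0.59 and -0.22, and each exceeded its scanner error. Among these Me2 is a malic enzyme that feeds on the cycle and no step of it. Cs, citrate synthase, which joins acetyl-CoA to oxaloacetate, had a signal of 54082 on the knockout and 73613 on the wild type array (-0.41, 1.33-fold lower). Idh3a, the catalytic chain of the NAD-dependent isocitrate dehydrogenase, had 7186 on the knockout and 11038 on the wild type array. Its difference of -0.59, just past 1.5-fold, was the largest of the 13. The other chains of that enzyme differed less. Idh3b had 17741 on the knockout and 21114 on the wild type array (-0.22), and Idh3g had 49426 on the knockout and 60139 on the wild type array (-0.25).

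The 2-oxoglutarate dehydrogenase complex, which makes succinyl-CoA, was lower by a similar amount in each part. Ogdh, its first enzyme, had 30080.4 on the knockout and 41309 on the wild type array (-0.43). Dlst, its succinyltransferase, had 12233 on the knockout and 16549 on the wild type array (-0.41), and Dld, shared with pyruvate dehydrogenase, stood at -0.40. The probes of Ogdh disagreed. A further probe gave -0.41, but the third had 25813 on the knockout and 19479 on the wild type array, a difference of 0.44. Which transcripts each probe reads was not tested.

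The subunits of succinyl-CoA ligase were the closest together, spanning 0.02. Sucla2, the ATP-forming chain, had 8928 on the knockout and 10919 on the wild type array (-0.26). Suclg1, the shared chain, had 12694 on the knockout and 15369 on the wild type array (-0.25), and its spot lies in a corner area of the array whose 555 measured genes had a median of -0.00. Suclg2, the GTP-forming chain, had 547 on the knockout and 671 on the wild type array (-0.27). A spread below the median SD of repeated spots (0.07) shows only that these subunits read alike here.

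The remaining genes of this group followed the same direction. Fh1, fumarase, had 19883 on the knockout and 24124 on the wild type array (-0.25). Mdh2, the mitochondrial malate dehydrogenase, had 149239 on the knockout and 197717 on the wild type array (-0.38), and Me2 had 1661 on the knockout and 2270.3 on the wild type array (-0.42). Idh2, the mitochondrial NADP-dependent isocitrate dehydrogenase, had 27719 on the knockout and 33610 on the wild type array (-0.25). All 13 remained below 0 under normexp, quantile normalization and the median over probes. Without the upper array rows all 12 that could still be read did.

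Of 17 further genes around the cycle 16 were measured, 12 of them below 0 and 3 at least 1.2-fold lower. Sdha, the flavoprotein of succinate dehydrogenase, had 28068 on the knockout and 35617 on the wild type array (-0.31), and the 4 subunits of that enzyme lay between -0.31 and -0.18. Acod1, which makes itaconate out of the cycle's aconitate in activated macrophages, went the other way, with 302 on the knockout and 177 on the wild type array (0.80, 1.74-fold). Glud1, glutamate dehydrogenase, was at 0.24.

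The cytosolic counterparts were mixed. Idh1, the cytosolic isocitrate dehydrogenase, which makes NADPH, was higher, with 1808 on the knockout and 1570 on the wild type array (0.23, and -0.30 with spike-in scaling). Mdh1, the cytosolic malate dehydrogenase of the malate shuttle, was lower, with 62650 on the knockout and 81061 on the wild type array (-0.34). Me1, the NADPH-making malic enzyme, had 2321 on the knockout and 2616 on the wild type array (-0.14, its further probes -0.15 and -0.09). Aco1, aconitase and iron-response protein, had 161 on the knockout and 191 on the wild type array (-0.21, error 0.21). The NADPH-making enzymes outside the pentose phosphate pathway thus did not share a direction: Idh1 lay above 0, Idh2 and Me1 below.

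**Figure D2:**
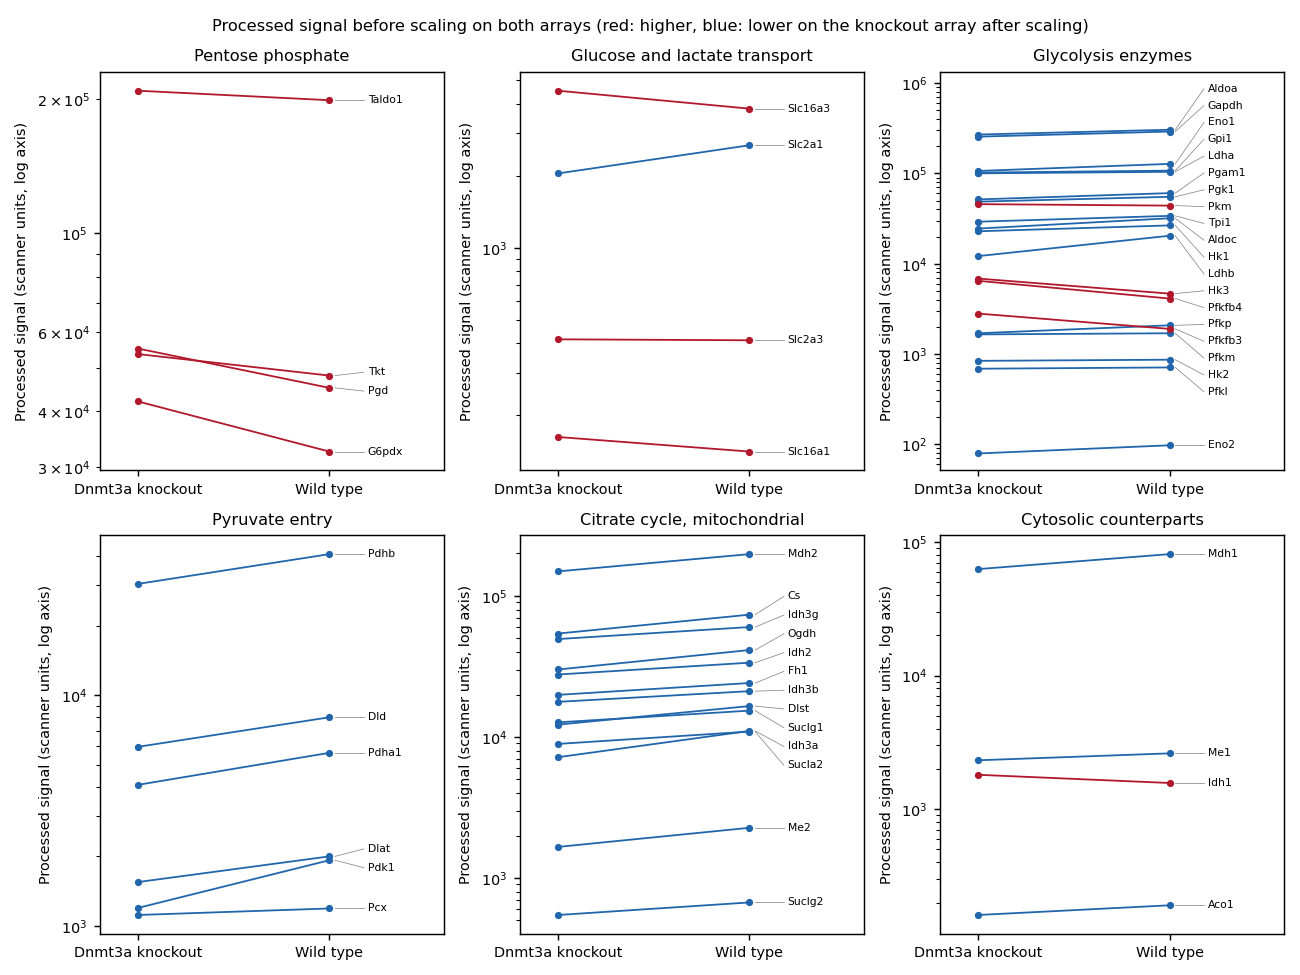
Processed signal in scanner units before scaling, on a log axis, for each gene on the Dnmt3a knockout array (left points) and the wild type array (right points), by role; red lines are genes higher and blue lines genes lower on the knockout array after scaling to the 75th percentile. Lines slope down to wild type for all 4 pentose phosphate genes and up to it for all 6 genes of pyruvate entry and all 13 of the mitochondrial citrate cycle. With spike-in scaling only Hk3, Pfkfb3 and Pfkfb4 remain higher.

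Glycolysis enzymes were lower by a small amount, apart from 4 genes at the ends. Without Hk3, Pfkfb3, Pfkfb4 and Ldhb, set aside after their values were seen, the other 16 lay between -0.35 and 0.08 with a median of -0.15, and 12 of the 16 were within the scanner error. Hexokinases, which trap glucose as its phosphate, went apart. Hk3, the myeloid form, had 6855 on the knockout and 4668 on the wild type array (0.58, just under the 1.5-fold threshold). Hk1 had 22889 on the knockout and 26580 on the wild type array (-0.19), and Hk2 had 840.0 on the knockout and 865 on the wild type array (-0.01). Gpi1, the isomerase that follows, had 3 probes between -0.18 and -0.04.

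Of the chains of phosphofructokinase, the committed step, the liver and muscle forms differed least. Pfkl had 687 on the knockout and 710.2 on the wild type array (-0.02). Pfkm was spotted 10 times, with signals of 1465 to 1774 on the knockout and 1586 to 1825 on the wild type array. Those ranges overlap. Its difference was -0.01 with an SD of 0.07 over the 10 spots, which are repeats within an array and not replicates. Pfkp had 1698 on the knockout and 2079 on the wild type array (-0.26), while its dim further probe gave 0.03.

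The regulators of that step were the highest of all 51 genes. Pfkfb3 and Pfkfb4 encode bifunctional enzymes that set the level of the sugar bisphosphate that switches phosphofructokinase on. Pfkfb4 had 6472 on the knockout and 4115 on the wild type array, a difference of 0.68 (1.61-fold) at percentile 96.2 of all measured genes. Its other probe was not well above background on both arrays. Pfkfb3 had 2805 on the knockout and 1898 on the wild type array (0.59, 1.51-fold, percentile 94.4), and its dim further probe gave 0.96. With spike-in scaling both stayed above 0, Pfkfb4 at 0.15 and Pfkfb3 at 0.06, as did Hk3 at 0.05. The related Pfkfb2, outside the 51, was lower (160.3 on the knockout and 255 on the wild type array, -0.64).

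Most genes of the lower part of glycolysis lay slightly below 0, by unequal amounts. Aldoa, Tpi1, Gapdh, Pgk1 and Pgam1 lay within the scanner error, while Aldoc, Eno1 and Eno2 exceeded it. Aldoa, the main aldolase, had 269978 on the knockout and 305129 on the wild type array (-0.15), and Aldoc had 24515 on the knockout and 31894 on the wild type array (-0.35). Tpi1, triose-phosphate isomerase, gave -0.18 and -0.16 by 2 probes. Gapdh, the dehydrogenase often used as a reference gene, gave between -0.16 and -0.03 by 7 probes. All 7 were below 0 and the brightest had 255670 on the knockout and 291388 on the wild type array.

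Pgk1, which makes the first ATP, had 48710 on the knockout and 55150 on the wild type array (-0.15), and Pgam1, the mutase, had 51586 on the knockout and 60589 on the wild type array (-0.20). Eno1, the main enolase, had 106645 on the knockout and 127702 on the wild type array (-0.23), and the dim Eno2, the neuronal form, had 79.1 on the knockout and 97.5 on the wild type array (-0.27, error 0.23). Pkm, pyruvate kinase, was the exception, with 45731 on the knockout and 44044 on the wild type array (0.08, within the scanner error). Several glycolysis genes, Gapdh above all, have processed pseudogenes in the mouse genome, and their probes may read such copies.

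Lactate dehydrogenase chains parted. Ldhb, the heart-type chain, had 12146 on the knockout and 20421 on the wild type array. Its difference of -0.72 (1.65-fold lower, percentile 2.46) was the lowest of all 51 genes, by 1 probe. Ldha, the muscle-type chain, had 100318 on the knockout and 104325 on the wild type array (-0.03), and its 3 probes lay between -0.03 and 0.14. Ldhd, outside the 51, a mitochondrial enzyme for the other mirror form of lactate, was also lower (441 on the knockout and 782 on the wild type array, -0.80).

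Of the transporters, Slc2a1, the widespread glucose carrier, was lower, with 2043 on the knockout and 2679 on the wild type array (-0.36). Slc2a3, a high-affinity glucose carrier, had 415 on the knockout and 411 on the wild type array (0.04). The lactate carriers lay above 0. Slc16a3, which exports lactate from glycolytic cells, had 4525 on the knockout and 3809 on the wild type array (0.28, further probe 0.34). Slc16a1 had 162 on the knockout and 141 on the wild type array (0.23). With spike-in scaling both carriers were below 0, Slc16a3 at -0.25 and Slc16a1 at -0.30. Slc2a6, a further carrier of the family outside the 51, was higher (4271 on the knockout and 2481 on the wild type array, 0.81, and still above 0 once the shift of 0.53 is taken off).

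Over the 24 further genes of glycolysis and transport 17 were measured, 13 below 0 and 4 above, with 1 at least 1.2-fold higher and 3 lower. Of 20 regulators of glucose use 17 were measured, with 10 above 0 and a median of 0.07. Max, the partner of Myc, was highest at 0.44, and Txnip, which restrains glucose uptake, was at 0.35. Myc itself (387 on the knockout and 584 on the wild type array, -0.57) and Mlxip, a glucose-sensing factor (-0.56), were lowest.

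**Figure D3:**
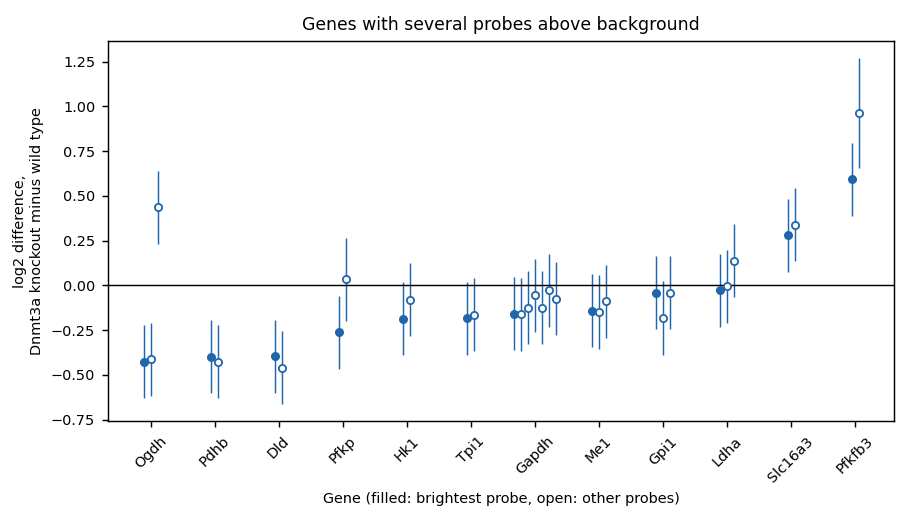
Log2 difference, Dnmt3a knockout minus wild type, by probe for the 12 genes with several probes above background on both arrays; filled points are the brightest probe, open points the others, bars the scanner error. In 9 of the 12 all probes have the same sign; Ogdh, Pfkp and Ldha have probes on both sides of 0, and Ogdh spans 0.86. Spike-in scaling lowers all points by 0.53.

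Markers of the cells in these cultures also differed between the arrays. The labelled cell type was borne out by Acp5, the tartrate-resistant acid phosphatase, with 442434 on the knockout and 451856 on the wild type array, and by Ctsk, the collagen-degrading cathepsin, with 356772 on the knockout and 413300 on the wild type array. All 11 osteoclast markers were below 0 on the knockout array (median -0.58, from Tnfrsf11a at -1.20 to Acp5 at -0.00), with a summed signal of 988167 on the knockout and 1160790 on the wild type array. All 10 neutrophil markers read were above 0 (median 0.47), with a summed signal of 275632 on the knockout and 228670 on the wild type array. So were 9 of 10 macrophage markers (median 0.74), with a summed signal of 637211 on the knockout and 496514 on the wild type array. Of 11 stromal and osteoblast markers 9 were measured, 7 below 0 (median -0.72), with a summed signal of 47044 on the knockout and 73889 on the wild type array over all 11, and Lum and Runx2 were not well above background. Of 7 erythroid markers 4 were measured, 3 below 0 (median -0.37), with a summed signal of 860.3 on the knockout and 979.6 on the wild type array over all 7, and Alas2 and Klf1 were among those not well above background. The part of these shifts in the values of the pentose phosphate, pyruvate entry and citrate cycle genes was not tested. Of the 51 genes 33 were among the 3369 measured genes with the brightest probes, whose median difference was 0.03, with 45.1% of them below 0.

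The median of the pentose phosphate genes minus that of the mitochondrial citrate cycle genes was 0.52 in the main setting. It was 0.63 after normexp and 0.54 after quantile normalization. Without the upper array rows it was 0.41, but there only Taldo1 and Tkt, both within the scanner error, were left of the pentose phosphate genes. Median centring and spike-in scaling shift all genes alike and cannot move the gap. It was also 0.52 with the deposited value table and with dim probes let in. Neither could move it beyond rounding, since the table differs by 1 factor per array and all 51 genes were already measured. The median over probes gave 0.52 as well, but among the pentose phosphate and citrate cycle genes it bears only on Ogdh.

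**Figure D4:**
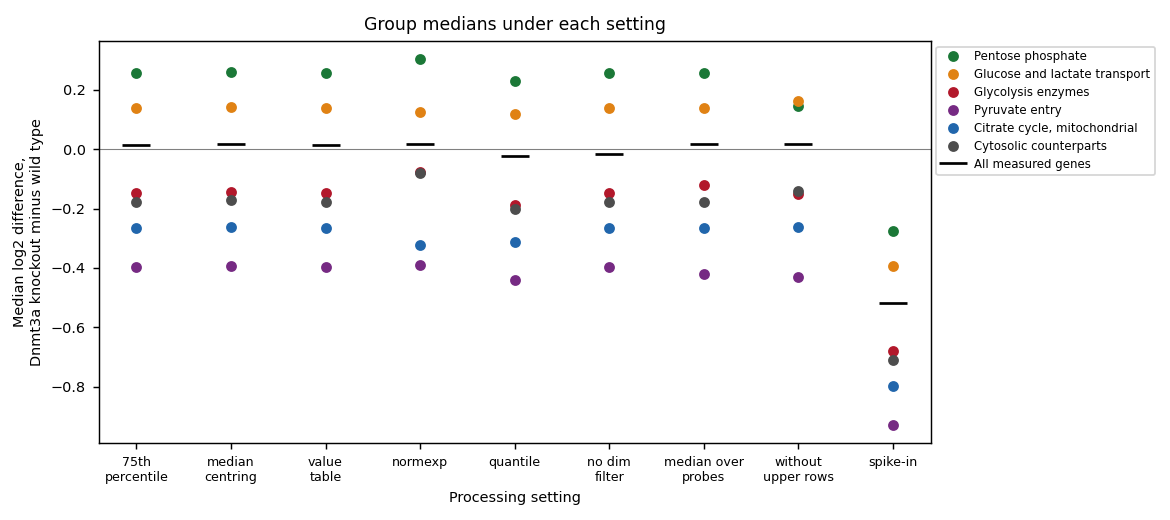
Median log2 difference, Dnmt3a knockout minus wild type, of each group of genes (points) and of all measured genes (black bars) under each processing setting. Pyruvate entry lies lowest and the mitochondrial citrate cycle next under each; the pentose phosphate genes lie at or near the top, and spike-in scaling moves all groups below 0.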

How the data were processed

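RNA of 1 Dnmt3a knockout and 1 wild type osteoclast culture was read on 1-colour Agilent arrays. The authors' deposited scanner files hold spot intensity, background-subtracted and detrended within each array by Feature Extraction 10.10.1.1 (protocol GE1_1010_Sep10, mm9), per the file headers; the submitters' processing notes name version 9.1. Marks for uneven, outlying, saturated or well-above-background spots come with them and were used. Also used were the scanner's error of the intensity and, for normexp only, the median spot and background signals. The deposited value table is the same intensity times 1 factor per array (1.54 for the knockout, 1.55 for wild type), with column medians of 66.5 and 59.6; why that factor was chosen is not known. It served as an alternative.

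Here each array's log2 intensity was scaled to its own 75th percentile, taken from all 59305 non-control spots. Spots marked as uneven or outlying (172 on the knockout and 157 on the wild type array) were then left out. No spot was saturated. Probes were named by unversioned accession through a RefSeq table (GRCm38.p6, names only): 27218 of 55649 matched. The brightest probe stood for its gene. Measured means well above background on both arrays in most spots. The arrays share a slide and a scan. The members, lists, motifs and thresholds (1.2-, 1.5- and 2-fold) were chosen with earlier results of these data known. Any of the 51 genes may be named; further pathway genes are named when at least 1.5-fold different or among the 2 highest or lowest of their list, and the values of some genes that this rule names are not reported here. normexp (limma 3.58.1, offset 50) used the median spot signal, since the planned mean signal is not among the columns used here. The scripts (Python 3.11.15) were tested on simulated differences.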

Additional observations from a re-analysis of the deposited data

How the results depend on the processing

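The differences were recomputed with median centring, the value table, normexp, quantile normalization, no filter on dim probes, the median over probes, without the upper array rows, and with spike-in scaling. Scaling to the spike-in probes moved all group medians below 0: pentose phosphate -0.28, transport -0.40, cytosolic counterparts -0.71, glycolysis -0.68, citrate cycle -0.80, pyruvate entry -0.93 and all 51 genes -0.74. It left 0 genes at least 1.2-fold higher and 45 lower, 0 at least 1.5-fold higher and 34 lower, and 3 at least 2-fold lower; over all 13476 measured genes 10882, 5443 and 1024 were lower by these amounts. Of the 12 genes above 0, it put 9 below 0: Slc16a3 (-0.25), G6pdx (-0.13), Pgd (-0.21), Slc2a3 (-0.49), Slc16a1 (-0.30), Pkm (-0.45), Taldo1 (-0.43), Tkt (-0.34) and Idh1 (-0.30). This follows from its construction, a constant shift. Quantile normalization left 1 gene at least 1.5-fold higher. At 1.2-fold it gave 5 of the 51 higher and 24 lower, where 17.1% and 20.6% of all measured genes were. Without the upper array rows only 38 of the 51 genes could be read, with 3 at least 1.2-fold higher and 11 lower, fewer because fewer genes were read. Over all genes the counts at least 2-fold higher and lower were 111 and 98, but 42 and 26 after normexp, 18 and 1024 when scaled to the spike-ins, 86 and 130 when quantile-normalized, and, when dim probes were let in, 1183 and 466. No paired analysis was possible because each genotype has 1 array. The number of arrays limits the precision of every value.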
